A study of Bos taurus with 16 samples.

Results

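ATP-dependent chromatin remodelers are protein machines that use the energy of ATP to slide, eject or exchange nucleosomes, and so set which stretches of DNA can be reached by transcription factors. Each machine is built around an ATPase motor, and the motor places it in the SWI/SNF, ISWI, CHD/NuRD or INO80 family, while the other subunits direct the motor to its targets and are often encoded by several related genes that replace each other. In the early embryo these complexes meet a genome that is silent at first and is then activated, at a time when mRNAs stored by the oocyte are being cleared.

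The set described here held 46 gene names, chosen by the name and complex of the gene: 17 of SWI/SNF, 7 of ISWI, 17 of the CHD/NuRD group, 4 of INO80 and the single ATPase HELLS. Of these names, 45 were matched to a locus in a table of 27393 loci. SRCAP, the motor of a complex that deposits the histone variant H2A.Z, was not matched by name and was not analysed here. Reads were found for 42 members, and 34 passed the filter on low values and were tested. The members below that filter were SMARCD1, BRD9, BAZ2B, CHD3, CHD6, CHD9, MBD2 and MBD3.

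The samples were 16 libraries of bovine in vivo material without any treatment, each made from an individual oocyte or embryo after amplification of its RNA in 2 rounds. There were 2 libraries for each of 8 stages: mature oocytes (MII), 2-cell (2C), 4-cell (4C), 8-cell (8C) and 16-cell (16C) embryos, early morulae (EM), compact morulae (CM) and blastocysts (BL). Embryos produced in vivo activate their genome between 4C and 8C, so the 6 libraries of MII, 2C and 4C are called before activation, and the 10 libraries of 8C to BL after activation. Levels are given in CPM, the reads of a locus per 1000000 reads of its library. The libraries held 607672 to 3379426 reads, so that 3 reads corresponded to 0.888 to 4.94 CPM.

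Because whole embryos were measured, fewer cells of a type and less RNA per cell cannot be told apart. Summed transcripts of 10 oocyte markers stood at 3147 to 10223 CPM before activation and at 5.89 to 60.5 CPM from 16C on, with 28.5 and 1488 CPM in the 8C embryos, so that replicate 2 of 8C still held oocyte transcripts. Of 9 blastocyst markers, KRT8 and KRT18 stood at 503 to 525 and 367 to 388 CPM in the blastocysts and at most 114 CPM in any earlier library. POU5F1 stood at 122 to 295 CPM before and 2498 to 5926 CPM after activation, SOX2 stayed at or below 12.3 CPM, and the defining marker CDX2 had 1 read in all. Of 8 cumulus markers, HAS2 reached 68.7 to 298 CPM before activation and at most 18.3 CPM after it, while FSHR stayed at or below 9.20 CPM and AMH was at 0. The part of remaining oocyte or cumulus RNA in the results on members was not tested.

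Expression changed across the 8 stages for 15 of the 34 members tested (adjusted p below 0.05, limma), which is 44.1% of them, beside 66.7% of all loci tested. These were 6 of 15 members in SWI/SNF, 2 of 6 in ISWI, 6 of 10 in CHD/NuRD and 1 of 2 in INO80. When the stages before and after activation were compared, 20 of 34 members changed, 58.8% beside 66.8% of all loci, and they were split evenly, with 10 higher and 10 lower after activation. Of the 10 higher, MTA2, MTA3, RUVBL1 and SMARCB1 reached the level that the filter asks of a library, 7.42 CPM, only after activation, so they were tested only because they were high there. The other 30 members reached this level in some library of both periods, and 6 of them were higher and 10 lower. The filter asks this level of 6 libraries. Of the 6 higher, CHD2, CHD8, SMARCD2, BPTF and SMARCC2 reached it in 1, 2, 3, 4 and 5 earlier libraries and 10 later ones. They too passed only with the later libraries, while BAZ2A reached it in 6 earlier ones. Of the 10 lower, GATAD2B reached it in 6 earlier libraries and 1 later one. The split is thus not free of the filter. Among all loci, 36.9% were higher and 29.9% lower. The median log2 change of the members was -0.20, and that of all loci 0.23.

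Differences are given on the log2 scale of the deposited value plus 1, after minus before, with the standard error (SE). This scale understates the change of mRNAs with few reads. When libraries were scaled to their total reads instead, the median of all loci moved from 0.23 to 0.66, and the split of the members became 11 higher and 5 lower of 34. All loci moved in the same direction, to 41.6% higher and 23.1% lower. Falls of CHD4, INO80, PBRM1, BAZ1A and BAZ1B did not pass the threshold on that scale, and SMARCC1 passed it as a rise (log2 change 1.37, limma adjusted p = 0.027).

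**Figure D1:**
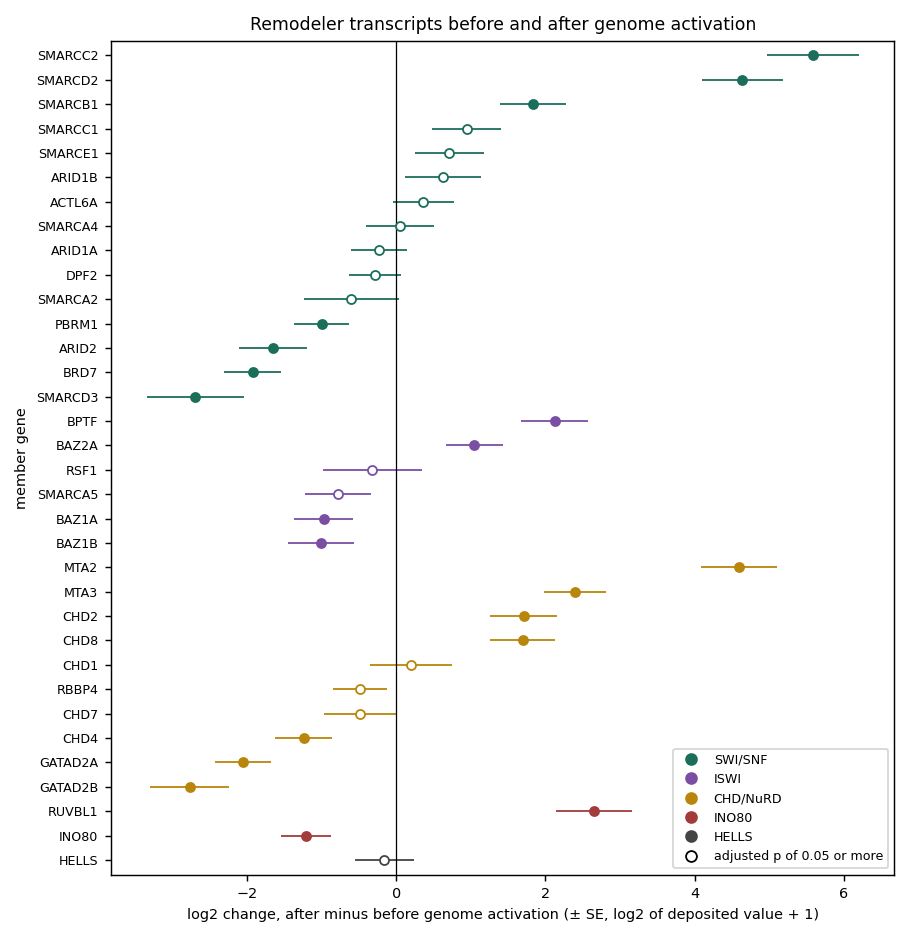
Log2 change of each of the 34 tested members, after minus before activation (x axis, log2 of the deposited value plus 1, points with SE bars, 6 against 10 libraries), grouped and coloured by complex, with filled points where the limma adjusted p was below 0.05. Each group except HELLS holds filled points on both sides of 0, from SMARCC2 at 5.59 to GATAD2B at -2.77.

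In SWI/SNF, the mRNAs for the motors themselves did not pass the threshold, while mRNAs for 3 core subunits rose and those for 4 other subunits fell, that is, 7 of 15 members tested beside 66.8% of all loci. SMARCA4 (BRG1), the main motor of the complex, stood at 3.07 to 45.3 CPM (median 22.8) before and 8.66 to 72.7 CPM (median 27.5) after activation. Its log2 change was 0.05 (SE 0.45, limma adjusted p = 0.92). The alternative motor SMARCA2 (BRM) was low throughout, with 0 to 17.8 CPM before and 1.43 to 17.6 CPM after activation. Both motors overlapped between the periods, and the blastocysts were the highest stage for SMARCA4 with 72.7 and 57.2 CPM.

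SMARCC2 (BAF170), a scaffold subunit of the SWI/SNF core, showed the largest rise among the 34 members tested. It was found at 28.8 and 4.38 CPM in MII, 125 and 123 CPM in 2C, and 111 and 130 CPM in 4C. It then stood at 7636 and 2366 CPM in 8C, 2992 and 4953 CPM in 16C, 1807 and 1205 CPM in EM, 4399 and 2291 CPM in CM, and 12991 and 7850 CPM in BL. Every library after activation exceeded every library before it. The log2 change was 5.59 (SE 0.61, limma adjusted p = 9.3e-08). SMARCC2 made up 1.41% to 24.3% of the summed CPM of the 17 SWI/SNF members before and 61.4% to 95.4% after activation. Without it, the sum was 306 to 567 CPM before and 502 to 812 CPM after activation.

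SMARCD2 (BAF60B), which links the complex to transcription factors, rose as well. Its level was 3.99 and 0 CPM in MII, 5.32 and 19.5 CPM in 2C, and 8.33 and 16.0 CPM in 4C, and afterwards 187 and 110 CPM in 8C, 207 and 132 CPM in 16C, 338 and 165 CPM in EM, 393 and 326 CPM in CM, and 164 and 139 CPM in BL. The groups did not overlap, and the stage mean was highest in the compact morulae, although 1 early morula (338 CPM) exceeded 1 compact morula (326 CPM). The log2 change was 4.64 (SE 0.54, limma adjusted p = 2.3e-07). SMARCB1 (SNF5), a core subunit found in most SWI/SNF complexes, rose by 1.83 (SE 0.44, limma adjusted p = 0.0010), from 0.438 to 4.92 CPM before to 2.94 to 22.6 CPM after activation, and its groups overlapped through 1 blastocyst. SMARCB1 passed the filter on low values through the later libraries alone.

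In the order of genes in RefSeq's ARS-UCD2.0 annotation, both leading risers lie directly beside another gene. The neighbour of SMARCC2 is MYL6, which encodes a myosin light chain and stood at 0 to 18.1 CPM before and 22.4 to 319 CPM after activation (log2 change 3.41, SE 0.62, limma adjusted p = 6.1e-05). The neighbour of SMARCD2 is PSMC5, an ATPase subunit of the proteasome, at 50.0 to 153 CPM before and 138 to 367 CPM after activation, a log2 change of 0.73 (SE 0.36, limma adjusted p = 0.081). Whether counting kept the strands of the RNA apart is not given in the sources used here, so the part of reads from these neighbours in SMARCC2 and SMARCD2 was not tested.

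The 4 SWI/SNF members that fell were SMARCD3, BRD7, ARID2 and PBRM1. BRD7, ARID2 and PBRM1 are known as subunits of PBAF, the form of SWI/SNF that carries several bromodomains, a grouping made here after their values were seen. BRD7 stood at 51.8 and 124 CPM in MII, 103 and 66.6 CPM in 2C, and 59.0 and 41.2 CPM in 4C, against 11.5 to 40.9 CPM (median 26.4) in the 10 later libraries. No library after activation reached the lowest one before it, and the log2 change was -1.92 (SE 0.38, limma adjusted p = 1.4e-04). ARID2, the DNA-binding subunit of PBAF, changed by -1.65 (SE 0.46, limma adjusted p = 0.0034), from 30.1 to 75.0 CPM before to 4.40 to 52.5 CPM after activation. PBRM1 changed by -0.998 (SE 0.37, limma adjusted p = 0.021), from 17.1 to 67.4 CPM before to 12.5 to 75.7 CPM after, and lost its call without replicate 1 of MII (limma adjusted p = 0.054) or replicate 1 of 4C (limma adjusted p = 0.051).

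SMARCD3 (BAF60C), a paralog of SMARCD2, moved the opposite way with a log2 change of -2.69 (SE 0.65, limma adjusted p = 0.0010). It stood at 7.01 to 57.9 CPM before activation, 11.1 and 15.4 CPM in 8C, 3.09 and 3.29 CPM in 16C, 0.817 and 1.11 CPM in EM, 0 in both compact morulae, and 4.91 and 1.47 CPM in BL. The 8C embryos were thus still within the earlier range, and the lower values began at 16C. The subunits ARID1A and ARID1B, which define the BAF form of the complex, and DPF2, ACTL6A, SMARCE1 and SMARCC1 did not pass the threshold, with log2 changes between -0.28 and 0.94. ARID1A, for example, stood at 47.3 to 105 CPM before and 37.8 to 161 CPM after activation. BRD9, which marks the non-canonical form of the complex, had 60 reads over the 16 libraries and was not tested.

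In ISWI, the motor SMARCA5 (SNF2H), which spaces nucleosomes evenly, held most of the reads in every library and made up 74.7% to 97.7% of the summed CPM of the 7 members. Its level was 2016 and 2474 CPM in MII, 2793 and 1351 CPM in 2C, 2133 and 2921 CPM in 4C, 1657 and 1210 CPM in 8C, 2968 and 2845 CPM in 16C, 3230 and 2454 CPM in EM, 1894 and 2823 CPM in CM, and 650 and 775 CPM in BL. The blastocysts were the lowest libraries, and the periods overlapped. SMARCA5 changed across the stages (limma adjusted p = 0.028), while the change at activation of -0.78 (SE 0.44) did not pass (limma adjusted p = 0.13).

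A second locus named SMARCA5 held 2953 reads against 50324 on the first. It stood at 89.6 to 156 CPM before and 58.2 to 242 CPM after activation, and its log2 change of -0.90 (SE 0.32) passed the threshold (limma adjusted p = 0.017), but not when libraries were scaled to total reads (limma adjusted p = 0.31). The numbers of the identifiers pass along the chromosome of SMARCA5 in 2 runs, each in the order of position, and 1 of the loci lies in each run. The strand of the loci is not given in the sources used here, and which of them holds the SMARCA5 mRNA was not tested.

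The ISWI partners, each of which joins the motor to form a different complex, split in direction, and 4 of the 6 ISWI members tested passed, near the 66.8% of all loci. BPTF, the largest subunit of NURF and a reader of a histone mark found at active genes, rose by 2.12 (SE 0.45, limma adjusted p = 2.9e-04), from 1.75 to 15.1 CPM before to 23.6 to 87.3 CPM after activation. BAZ2A, the partner in the nucleolar complex NoRC, rose by 1.05 (SE 0.39, limma adjusted p = 0.021), from 9.64 to 57.1 CPM before to 30.8 to 261 CPM after, and did not pass without replicate 2 of MII (limma adjusted p = 0.063). BAZ1A (ACF1) and BAZ1B (WSTF) changed by -0.97 (SE 0.39, limma adjusted p = 0.034) and -1.01 (SE 0.44, limma adjusted p = 0.048).

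Both of these falls were near the threshold. BAZ1A stood at 18.4 to 44.3 CPM before and 7.42 to 47.0 CPM after activation, and BAZ1B at 21.9 to 76.5 CPM before and 3.71 to 70.5 CPM after, so that their groups overlapped. BAZ1A lost its call without either MII replicate, 2C replicate 2, 8C replicate 1, either EM replicate, CM replicate 2 or BL replicate 1 (limma adjusted p from 0.050 to 0.11). BAZ1B lost its call without either replicate of MII, 4C, 16C, EM or CM, without 2C replicate 1 or without 8C replicate 1 (limma adjusted p from 0.053 to 0.11). RSF1 changed by -0.32 (SE 0.66, limma adjusted p = 0.68), and BAZ2B had 20 reads in all.

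In the CHD/NuRD group, 4 members rose and 3 fell of 10 tested, a share near the 66.8% of all loci. NuRD joins nucleosome sliding to histone deacetylation in a single complex. CHD4 (Mi-2beta), the motor of NuRD, stood at 131 to 426 CPM (median 256) before and 88.1 to 245 CPM (median 151) after activation. The groups overlapped, and the log2 change was -1.24 (SE 0.38, limma adjusted p = 0.0066). The related motor CHD3 had 7 reads over the 16 libraries, all in 1 compact morula and 1 blastocyst.

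The levels of GATAD2A and GATAD2B, which encode the p66 proteins that connect NuRD's DNA-binding part to its motor, both fell. GATAD2A was at 5507 and 2364 CPM in MII, 6076 and 3412 CPM in 2C, and 3603 and 4235 CPM in 4C, and then at 1257 and 2102 CPM in 8C, 1011 and 882 CPM in 16C, 1335 and 1372 CPM in EM, 2710 and 1361 CPM in CM, and 1220 and 1017 CPM in BL. On the deposited scale the groups did not overlap, while in CPM 1 compact morula exceeded the lower MII oocyte. The log2 change was -2.05 (SE 0.37, limma adjusted p = 6.0e-05). A second locus named GATAD2A with 1171 reads, against 66203 on the first, changed by -1.84 (SE 0.35, limma adjusted p = 1.1e-04). As for SMARCA5, 1 of the loci lies in each run of identifiers, and which of them holds the GATAD2A mRNA was not tested. GATAD2B stood at 8.33 to 30.1 CPM before activation, 2.47 and 20.2 CPM in 8C, and 0 to 6.88 CPM from 16C on, a log2 change of -2.77 (SE 0.53, limma adjusted p = 1.0e-04).

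MTA2 and MTA3 encode subunits that hold the deacetylases in NuRD, and the mRNAs for both rose. MTA2 was at 2.22 and 0 CPM in MII, 0 in both 2C embryos, and 1.39 and 0.615 CPM in 4C, that is, at most 5 reads in any of these libraries. It then stood at 37.1 and 20.2 CPM in 8C, 35.5 and 21.4 CPM in 16C, 27.0 and 29.3 CPM in EM, 41.0 and 24.3 CPM in CM, and 95.3 and 125 CPM in BL. The groups were wide apart and the blastocysts were highest, with a log2 change of 4.59 (SE 0.51, limma adjusted p = 9.9e-08). The size of this change depends on the pseudocount, since the earlier reads were near 0. MTA3 rose from 0.694 to 6.57 CPM (median 4.32) to 18.6 to 42.1 CPM (median 30.6), again without overlap, by 2.40 (SE 0.42, limma adjusted p = 4.0e-05). Both members passed the filter on low values through the later libraries alone. The filter thus favoured these rises, and their p-values are not read as support for them.

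MTA1 and RBBP7 were at 0 in every library and lie inside a run of 2578 neighbouring loci without reads, so their zeros say nothing of the genes. RBBP4, a histone-binding subunit, was at 59.0 to 234 CPM before and 46.4 to 220 CPM after activation and did not pass (log2 change -0.48, SE 0.36, limma adjusted p = 0.25). MBD2 and MBD3, which recruit NuRD to DNA, had 8 and 36 reads and were not tested.

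Among the other CHD motors, CHD2 and CHD8 rose while CHD1 and CHD7 did not pass. CHD8, known for its link to Wnt signalling, stood at 5.32 and 0.438 CPM in MII, 9.32 and 5.03 CPM in 2C, and 5.56 and 12.9 CPM in 4C, against 12.4 to 46.2 CPM (median 26.0) after activation. The groups did not overlap on the deposited scale and touched in CPM, where 1 16C embryo lay below 1 4C embryo. The log2 change was 1.69 (SE 0.44, limma adjusted p = 0.0018). CHD2 rose by 1.71 (SE 0.45, limma adjusted p = 0.0020), from 2.19 to 11.3 CPM before to 8.57 to 61.9 CPM after, and was highest in 8C. CHD1, which acts with elongating RNA polymerase, stood at 2.00 to 18.8 CPM before and 3.93 to 42.6 CPM after activation (log2 change 0.20, SE 0.55, limma adjusted p = 0.76). CHD7, which acts at enhancers, stood at 3.94 to 46.7 CPM before and 2.32 to 37.8 CPM after (log2 change -0.49, SE 0.48, limma adjusted p = 0.38). CHD6 and CHD9 had 57 and 41 reads and were not tested, with CHD6 at 0 to 3.99 CPM before and 0 to 23.5 CPM after activation and CHD9 at 0 to 1.18 and 0 to 6.64 CPM.

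In INO80 both of the 2 tested members changed, in opposite directions, in a comparison where 66.8% of all loci did. INO80, the motor of a complex that acts at promoters and at damaged DNA, stood at 14.6 and 17.5 CPM in MII, 64.6 and 30.8 CPM in 2C, 19.4 and 33.8 CPM in 4C, and 9.62 to 19.5 CPM (median 15.6) after activation. On the deposited scale no later library reached the earlier ones, although in CPM both MII oocytes and 1 4C embryo lay within the later range. The log2 change was -1.21 (SE 0.33, limma adjusted p = 0.0032), and it did not pass with total-read scaling (limma adjusted p = 0.093). RUVBL1, a AAA ATPase shared by INO80, SRCAP and TIP60 complexes, rose by 2.65 (SE 0.51, limma adjusted p = 1.1e-04), from 0 to 4.14 CPM before to 1.65 to 20.5 CPM after. RUVBL1 passed the filter on low values through the later libraries alone. Its partner RUVBL2 was at 0 in every library. It lies outside the long run of empty loci, but GAPDH, a gene of basic metabolism, had only 26 reads over the 16 libraries, so a 0 or a low count in this table was not read as a lack of mRNA. Whether reads were counted by strand is not given in the sources used here, so reads of overlapping genes could not be told apart. HELLS, a motor needed for DNA methylation of repeats, stood at 6.94 to 16.0 CPM before and 5.41 to 29.4 CPM after activation and did not pass (log2 change -0.16, SE 0.40, limma adjusted p = 0.73).

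**Figure D2:**
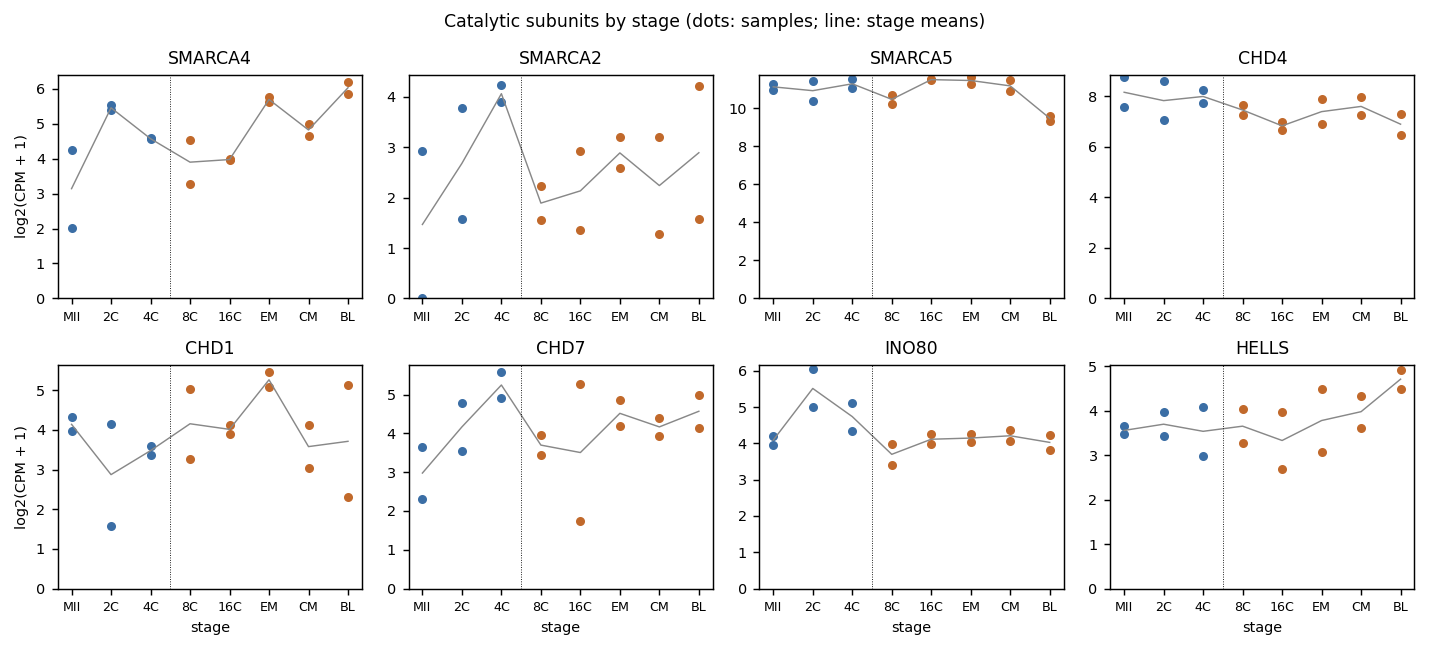
Log2(CPM + 1) of 8 catalytic subunits (y axis) in each library by stage (x axis), with blue dots before and orange dots after activation, lines through the stage means and a dotted line between 4C and 8C. SMARCA5 stands at 1210 CPM or more up to the compact morula and at 650 and 775 CPM in the blastocysts, while SMARCA4 and HELLS overlap between the periods.

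For 8 of the 34 members, the 6 libraries before and the 10 after activation did not overlap on the deposited scale: 5 were higher after (SMARCC2, SMARCD2, MTA2, MTA3 and CHD8) and 3 lower (BRD7, GATAD2A and INO80). The 5 higher passed the filter only with the later libraries. Before activation, MTA2 and MTA3 reached its level in no library, and CHD8, SMARCD2 and SMARCC2 in 2, 3 and 5. The 3 lower reached it in the 6 earlier and the 10 later libraries. Of all loci tested, 16% were higher and 14.1% lower without overlap. In CPM the members without overlap were 5 higher and 1 lower, beside 18.4% and 9.7% of all loci, as BPTF took the place of CHD8 and only BRD7 remained among the lower.

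**Figure D3:**
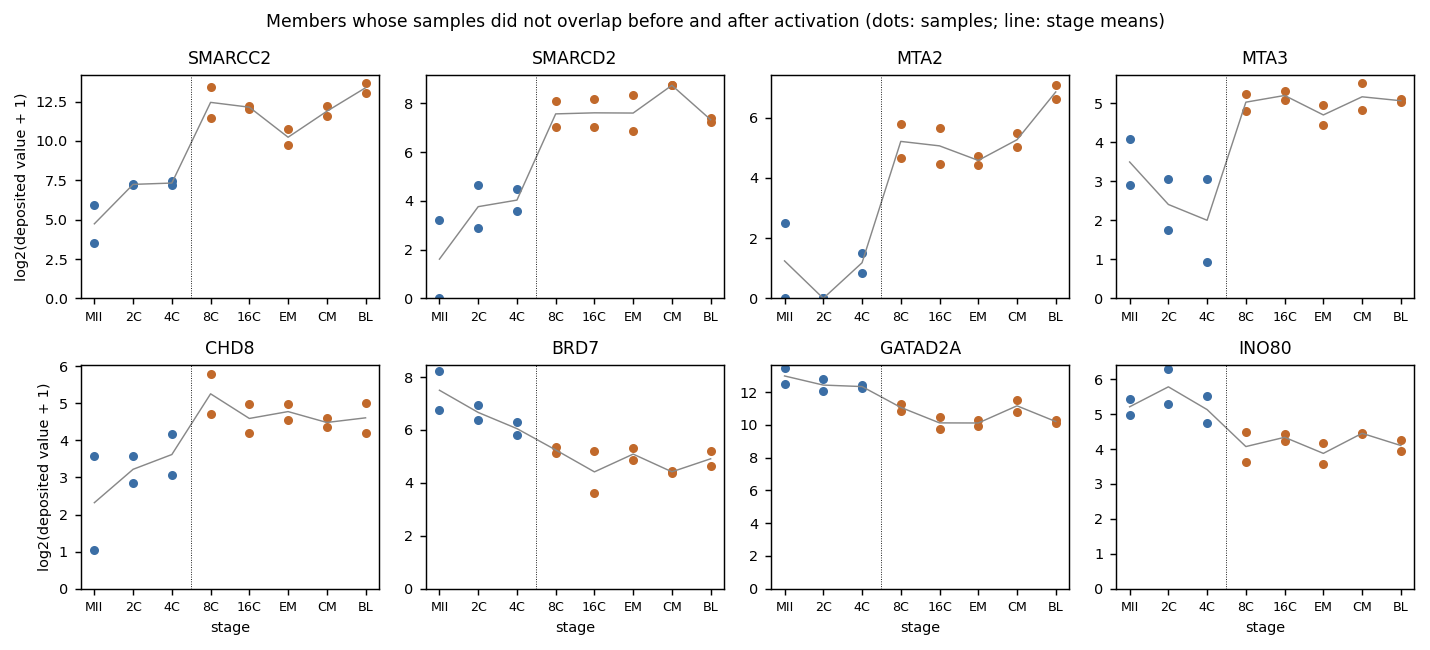
Log2 of the deposited value plus 1 (y axis) in each library by stage (x axis) for the 8 members whose groups did not overlap, with blue dots before and orange dots after activation and lines through the stage means. SMARCC2, SMARCD2, MTA2 and MTA3 step up between 4C and 8C, while BRD7, GATAD2A and INO80 lie lower from 8C on.

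The step between 4C and 8C itself was tested with 2 libraries on each side and the spread of all stages. It gave 6 of 34 members, all higher in 8C, while 36.8% of all loci changed, 17.7% being higher and 19.1% lower. Among the 6, MTA2, MTA3 and RUVBL1 reached the level of the filter in no library before activation, and CHD2 in 1. The filter thus favoured the direction of these calls. The number of loci called fell from 3560 of 9670 to 2003 of 10948 without 4C replicate 1, 1935 of 10920 without 4C replicate 2 and 2470 of 11192 without 8C replicate 1. SMARCC2 rose by 5.13 (SE 0.76, limma adjusted p = 2.2e-04), MTA2, from 2 and 1 reads in 4C, by 4.03 (SE 0.82, limma adjusted p = 0.0019) and SMARCD2 by 3.54 (SE 0.90, limma adjusted p = 0.0075). The others were CHD2, MTA3 and RUVBL1, with log2 changes of 3.32, 3.02 and 2.83. Without replicate 1 of 4C the calls of SMARCD2 (limma adjusted p = 0.079) and MTA3 (limma adjusted p = 0.11) were lost, as were those of SMARCD2 (limma adjusted p = 0.073) and RUVBL1 (limma adjusted p = 0.058) without replicate 1 of 8C and that of RUVBL1 (limma adjusted p = 0.13) without replicate 2 of 4C. None of the 10 members that fell over the whole period passed at this step in limma, where ARID2 changed by -1.86 (SE 0.73, limma adjusted p = 0.060) and PBRM1 by -1.69 (SE 0.67, limma adjusted p = 0.062), while the second locus of GATAD2A did, with a change of -1.69 (SE 0.61, limma adjusted p = 0.039). This call was lost in 12 alternatives and kept in 13, and was lost among others with edgeR (adjusted p = 0.10), DESeq2 (adjusted p = 0.057), total-read scaling (limma adjusted p = 0.070), and without either replicate of 4C, EM or CM or 8C replicate 1 (limma adjusted p from 0.055 to 0.29).

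Falls at this step were called or not depending on the setting. edgeR called 6 members and DESeq2 called 8 beside 28.8% of all loci, among them as lower GATAD2A (DESeq2 adjusted p = 0.041) and ARID2 (DESeq2 adjusted p = 0.043). In limma, ARID2 was also called lower with a pseudocount of 5 (adjusted p = 0.047) or without BL replicate 2 (adjusted p = 0.049), and PBRM1 with TMM scaling (adjusted p = 0.047) or without 8C replicate 1 (adjusted p = 0.037). RSF1 was called lower without 8C replicate 1 (limma adjusted p = 0.0061), and BAZ1B (limma adjusted p = 0.0066) and GATAD2B (limma adjusted p = 0.019) without 8C replicate 2. SMARCD1, which is below the filter with all samples, was called lower without either replicate of MII, 2C or BL, without 4C replicate 2 or without 8C replicate 2 (limma adjusted p from 0.033 to 0.048). BAZ2B, also below the filter, was called lower when no filter was used (limma adjusted p = 0.022).

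Of the members that fell over the whole period, 7 were higher in replicate 2 of 8C, which still held oocyte transcripts, and 3 in replicate 1. GATAD2A stood at 2102 CPM in replicate 2 and 1257 CPM in replicate 1, GATAD2B at 20.2 and 2.47 CPM, BAZ1A at 36.6 and 7.42 CPM, and BAZ1B at 29.8 and 3.71 CPM. The differences were smaller for ARID2 at 14.4 and 11.1 CPM, BRD7 at 28.9 and 27.2 CPM, and SMARCD3 at 15.4 and 11.1 CPM. Lower in replicate 2 were PBRM1 at 12.5 and 28.5 CPM, CHD4 at 152 and 198 CPM, and INO80 at 9.62 and 14.8 CPM.

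No member passed between MII and 2C, where 1.42% of all loci did, although 5 members had an unadjusted p below 0.05 in limma. The 137 loci called became 18 without MII replicate 2, 24 without 2C replicate 2 and 60 to 85 without 1 library of 4C, EM, CM or BL, and rose to 285 without 2C replicate 1, 280 without 8C replicate 1 and 302 without 8C replicate 2. The nearest was SMARCE1 (BAF57), a DNA-binding core subunit, at 3.10 and 1.75 CPM in MII and 18.0 and 29.6 CPM in 2C (log2 change 2.21, SE 0.56, limma adjusted p = 0.057). edgeR called 0 members and DESeq2 called SMARCE1 alone (adjusted p = 0.025) and 3.72% of all loci. No member passed between 8C and EM, where 0.486% of all loci did and 4 members had an unadjusted p below 0.05. The 47 loci called became 2 and 5 without replicates 1 and 2 of EM, 16 and 17 without those of 4C, and 506 without 8C replicate 1. edgeR gave 0 there too, and DESeq2 called SMARCC2 (adjusted p = 0.029) and SMARCD3 (adjusted p = 0.034), both lower in EM, and 2.91% of all loci.

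Between CM and BL, 4.42% of all loci changed and again no member passed, with 3 at an unadjusted p below 0.05. The 427 loci called became 132 without CM replicate 2 and 137 without BL replicate 2, and 660 and 670 without replicates 1 and 2 of 8C. SMARCA5 was the nearest, with a log2 change of -1.88 (SE 0.60, limma adjusted p = 0.096), and it was the only member called by DESeq2 (adjusted p = 0.012), which called 3.68% of all loci, while edgeR called 0. Both blastocysts lay below both compact morulae for SMARCA5. The genes beyond the rule that are named in these 3 comparisons and between 4C and 8C were chosen after their values were seen.

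Paralogs that can take the same place in a complex were compared by their log2 ratio within each library, which does not depend on depth except through low counts. Of 16 pairs fixed, 12 were tested and 4 passed (exact permutation test over 8008 splits, two-sided, adjusted over the 12 pairs). In 3 of these 4, 1 member had few reads before or after activation, so that the ratio set its paralog against the pseudocount: SMARCD1 and BAZ2B were below the filter on low values, and MTA2 passed it through the later libraries. These 3 pairs are given as values and not as a change of ratio. SMARCC1 minus SMARCC2 ran from -2.64 to -0.49 (median -1.62) before and from -8.23 to -3.94 (median -6.10) after activation, without overlap (difference -4.64, exact permutation adjusted p = 7.5e-04). Its unadjusted p of 1.2e-04 was the smallest that these splits allow. The splits moved single libraries, although the period belongs to the stage. Libraries of the same stage thus counted as independent, and splits of whole stages were not tested. SMARCC1 itself (BAF155) stood at 1.31 to 51.4 CPM before and 24.7 to 77.0 CPM after activation.

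SMARCD1 minus SMARCD2 ran from -2.38 to 3.25 (median -0.81) before and from -8.74 to -5.81 (median -7.37) after activation. SMARCD1 (BAF60A) stood at 2.00 to 8.33 CPM before and 0 to 1.96 CPM after, with at most 2 reads in any later library. When no filter was used, SMARCD1 changed by -2.32 (SE 0.44, limma adjusted p = 2.0e-04). These values thus hold the rise of SMARCD2 and a fall of SMARCD1 from few reads. BAZ2A minus BAZ2B had a median of 4.20 before and 6.26 after activation, with BAZ2B at 20 reads in all and at 0 in 8 of the 16 libraries. MTA2 minus MTA3 had a median of -1.98 before and 0.25 after activation, with MTA2 at 0 to 5 reads in the earlier libraries.

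The pairs SMARCA2 and SMARCA4, ARID1A and ARID1B, BAZ1A and BAZ1B, CHD1 and CHD2, and GATAD2A and GATAD2B were among the 8 that did not pass. CHD1 minus CHD2 changed by -1.51 (exact permutation adjusted p = 0.19), and passed without replicate 1 of 2C (difference -2.15, exact permutation adjusted p = 0.022).

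**Figure D4:**
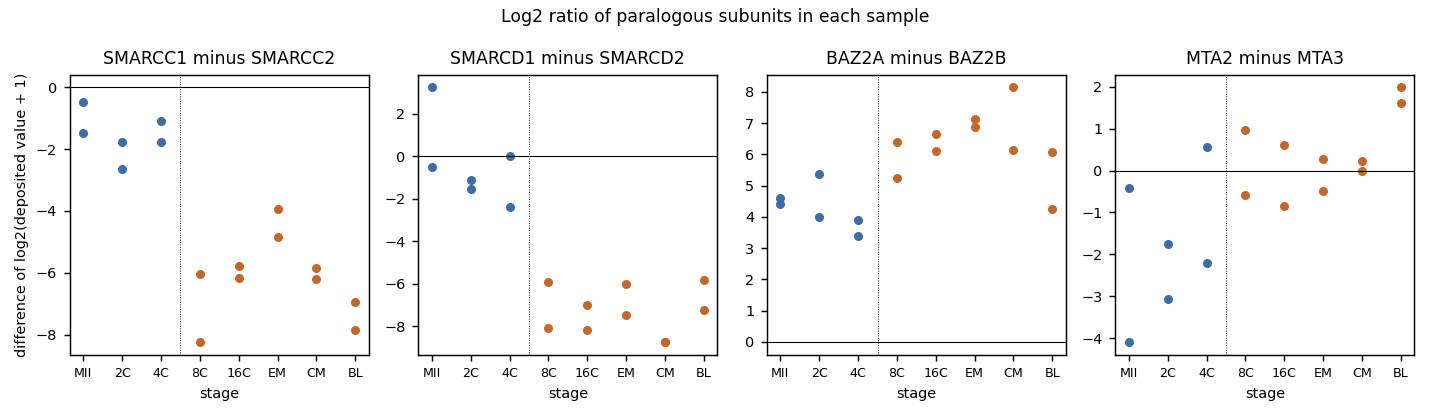
Difference of log2(deposited value + 1) between the paralogs of 4 pairs (y axis) in each library by stage (x axis), blue before and orange after activation. SMARCC1 minus SMARCC2 and SMARCD1 minus SMARCD2 separate at the dotted line between 4C and 8C, the latter with SMARCD1 near 0 reads after it, while BAZ2A minus BAZ2B and MTA2 minus MTA3 overlap across it.

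Summed over members, the medians of SWI/SNF and CHD/NuRD moved and those of ISWI and INO80 stayed close. SWI/SNF went from a median of 573 CPM to 4394 CPM and CHD/NuRD from 4340 to 1732 CPM, each following its leading member, SMARCC2 or the locus of GATAD2A with more reads. ISWI stood at 2407 and 2513 CPM and INO80 at 28.0 and 28.3 CPM. Without that locus the CHD/NuRD sum was 422 CPM before and 443 CPM after activation. These sums and the shares of single members count reads without regard to transcript length, so they compare periods and do not rank the levels of genes.

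**Figure D5:**
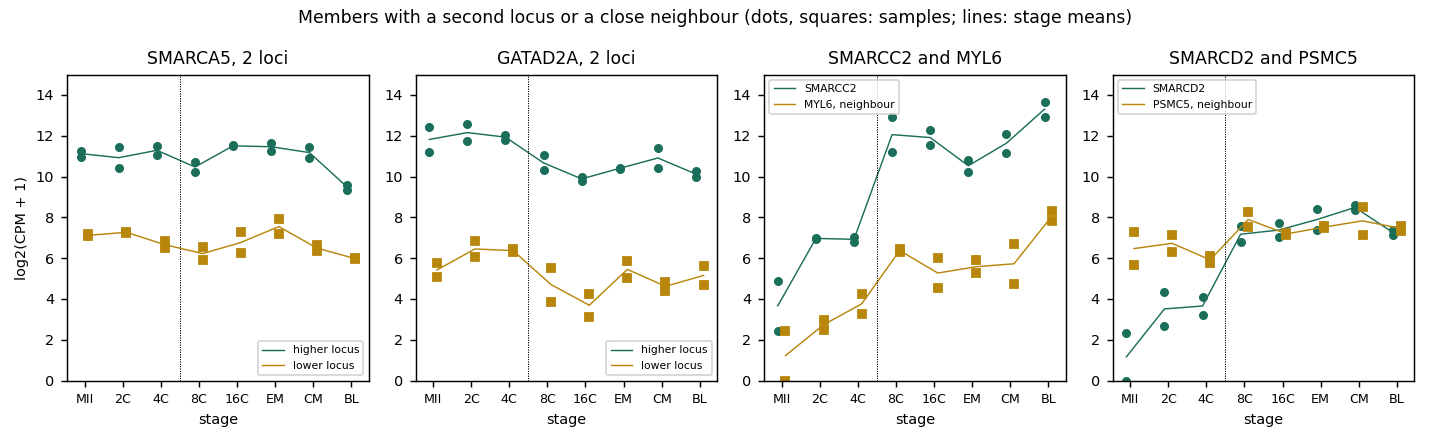
Log2(CPM + 1) by stage (x axis) for SMARCA5 and GATAD2A at their higher (green dots) and lower (yellow squares) locus, and for SMARCC2 and SMARCD2 (green) with their neighbours MYL6 and PSMC5 (yellow). Both loci of GATAD2A are lower after activation, and MYL6 steps up with SMARCC2.

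Of 54 other genes of these complexes and of related SNF2 motors, 51 were found, 34 were tested before against after activation, and 19 changed, 11 of them higher and 8 lower, in a comparison where 66.8% of all loci changed. Among the 34 tested, the largest rises were those of KAT5 (TIP60), the acetyltransferase of a complex with RUVBL1, by 5.50 (SE 0.57, limma adjusted p = 4.3e-08), and CHD1L (ALC1), a motor activated by poly(ADP-ribose), by 4.42 (SE 0.43, limma adjusted p = 2.1e-08). KAT5 stood at 0 to 22.5 CPM before and 124 to 904 CPM after activation, and CHD1L at 0 to 4.30 CPM and 20.1 to 58.2 CPM, both without overlap. CHD1L had at most 7 reads in any library before activation, so it was tested only because it was high later, and another pseudocount would give a different log2 change. The largest falls among the 34 were those of the ISWI partners CECR2, with a log2 change of -3.63 (SE 0.45, limma adjusted p = 5.1e-07), and CHRAC1, with -2.09 (SE 0.38, limma adjusted p = 6.8e-05). CECR2 went from 818 to 5567 CPM before to 121 to 404 CPM after activation, and CHRAC1 from 10.2 to 42.6 CPM before to 3.29 to 10.3 CPM after. VPS72, named after its values were seen, did not pass the filter on low values for this comparison and went from 7.32 to 29.7 CPM before to 0.817 to 5.89 CPM after activation.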

How the data were processed

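RNA-Seq was measured in 16 bovine samples, 2 for each of 8 stages, grouped by the developmental stage in the labels. Per the labels, cutadapt, FastQC, TopHat, Cufflinks and HTSeq were used by the authors. The genome build, the annotation and whether counting was stranded are not given in the sources used here, so no positions are printed. The deposited values are a signal per locus, read counts divided by a factor of each sample, and dividing each column by its smallest value gave whole reads for 100% of values (tolerance 0.01). CPM was computed from these reads, of which samples held 607672 to 3379426. No column belonged to other samples.

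The main test was limma-trend (limma 3.58.1) of log2(deposited value + 1), after edgeR's filter on low counts (9670 loci across stages, 6910 before against after activation), with Benjamini-Hochberg adjustment over all loci and a threshold of 0.05. edgeR 4.0.16 and DESeq2 1.42.0 on the recovered reads, other scalings, pseudocounts and filters, and leaving out samples were alternatives. The scripts were tested on simulated data. Ratios of paralogs were tested in Python 3.11.15. Replicates of a stage correlated with r of 0.845 to 0.948 across loci and differed beyond sampling noise. They are different oocytes or embryos, and p-values of the fits by stage cover the spread between them. Before against after activation, stages within a period were not modelled. The spread there also holds their differences, and libraries of the same stage counted as independent.

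The members, the gene lists and the tests were chosen with earlier results of these data known. Levels, by sample or as the range of a period, were given for the motors SMARCA2, SMARCA4, SMARCA5, CHD1, CHD3, CHD4, INO80 and HELLS where they had 3 reads in 2 samples or more, for members past the threshold without overlap, for the 3 largest changes of each other comparison and for members of pairs whose ratio passed. Of the other genes of the complexes, the 2 largest rises and 2 largest falls were named. The lists of oocyte, blastocyst, cumulus and blood markers were used to check the samples, and the blood markers summed to at most 19.8 CPM.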

Additional observations from a re-analysis of the deposited data

Results flagged for a closer look

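Among 68 groups of samples tested (34 members, before and after activation), 5 held a sample whose gap to the nearest other sample was large against the range of the group. Chance gives about 1 such group in 20. After activation, RSF1 was at 0 CPM in replicate 2 of 8C, with the other samples at 7.85 to 32.9 CPM (gap over range 0.651 on the log2 scale). CHD8 was highest in the same sample, at 46.2 CPM beside 12.4 to 32.7 CPM (0.491). CHD7 was at 2.32 CPM in replicate 1 of 16C beside 9.90 to 37.8 CPM (0.513), and RUVBL1 at 1.65 CPM, a single read, in replicate 2 of 16C beside 6.18 to 20.5 CPM (0.625). Before activation, SMARCA4 was at 3.07 CPM in replicate 2 of MII beside 18.2 to 45.3 CPM (0.696).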

How the results depend on the processing

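The number of members called before against after activation was 20 and stayed between 16 and 21 under all alternatives, and no result reversed. Of 842 values of single genes and pairs under alternatives, 790 kept their side of the threshold and 52 lost it, 18 of them for BAZ1B, 12 for the second locus of GATAD2A between 4C and 8C and 9 for BAZ1A. Leaving out 1 sample at a time gave 13 to 19 members across stages, 17 to 20 before against after activation, 0 to 2 between MII and 2C, 4 to 9 between 4C and 8C, 0 in the other steps, and 4 to 5 pairs. Between MII and 2C, 2 members were called with total-read scaling (SMARCC2 and SMARCE1), 1 with DESeq2, 2 without MII replicate 1 (SMARCC1 and SMARCC2) and 1 without 2C replicate 1 or either 8C replicate (SMARCE1). The share of all loci called there was 5.65% with total-read scaling, 3.72% with DESeq2, 1.35% without MII replicate 1, 2.62% without 2C replicate 1 and 2.5% and 2.72% without replicates 1 and 2 of 8C. DESeq2 called 2 members between 8C and EM and 1 between CM and BL. Using the locus with fewer reads for SMARCA5 and GATAD2A, an alternative chosen after seeing the data, gave 21 members before against after activation. The causes were not tested.

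Replicate numbers did not pair the samples, since deviations of same-numbered samples correlated with r from -0.257 to 0.134 over 28 pairs of stages and exceeded 0.1 in 1 pair. With the replicate number as a block, 19 members were called before against after activation, beside 4579 of 6910 loci. BAZ1B lost its call there (limma adjusted p = 0.053), while between 4C and 8C ARID2 gained one (limma adjusted p = 0.041).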
